A study of Mus musculus with 8 samples.

Results

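The axon guidance genes of the semaphorin, Slit, netrin and ephrin systems were followed in mouse neural tube on both sides of the first closure site. Members were chosen by symbol alone: the semaphorins Sema3 to Sema7, plexins, neuropilins, Slits, Robos, netrins Ntn1 to Ntn5, Unc5 receptors, Eph receptors and ephrins. This rule found 68 of the 26608 genes listed. Of these, 60 had a count in at least 1 library, 30 had a count in all 8, and 8 were at 0 throughout. A filter on low counts asked for about 10 counts in at least 2 of the 8 libraries, which need not be of 1 group. It left 49 members and 11779 genes for testing, or 72.1% of the members and 44.3% of all genes listed.

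All embryos were of the FVB mouse strain and were collected at day 8.5 of gestation, counted from day 0.5 on the morning of the plug. Neural tube was cut out of cryosections with a laser directly anterior to closure site 1, with the folds still apart (open), and directly posterior to it, with the folds joined (closed). The dams were normal or diabetic, which gave normal open (libraries 09 and 10), normal closed (11 and 12), diabetic open (13 and 14) and diabetic closed tissue (15 and 16). The labels leave unstated how diabetes was produced, the number of embryos and litters per library, and whether both regions were taken from 1 set of embryos. The p-values therefore reflect spread between these libraries only, which may be partly technical. Each library was made from 7 ng of RNA and counts 1 short tag near the 3′ end of a transcript, a method known as SAGE.

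Semaphorins bind plexins, in several cases with a neuropilin as co-receptor. Slits bind Robos, netrins bind Dcc, neogenin and Unc5 receptors, and ephrins bind Eph receptors on the neighbouring cell, which can also signal back through the ephrin. The systems are best known for steering axons, but they also act on the cytoskeleton and on adhesion, and at this stage, before axons grow, they also guide neural crest and blood vessels and set borders between tissues. Mouse mutants of Efna5, Plxnb2 and Sema4c fail to close the cranial neural tube in a share of embryos.

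Because the method reads a single position per transcript, the tags of the members that carry the results are shown first. They were read from the GENCODE M21 transcripts of GRCm38, as the CATG site nearest the 3′ end (the cut site of the SAGE anchoring enzyme, in capitals) with the 22 bases after it. The counts themselves were made on build mm9, and which tags were counted for a gene is not given in the sources used here. Sema3a and Slit1 stand for the comparisons of regions and dams, and Sema4b and Nrp1 for further values between dams. Ephb1 and Ephb4 stand for receptors that varied between groups, and Ntn1 and Plxna2 for the abundant members. None of them passed the main test over all genes with all 8 libraries.
Sema3a: CATGtattcagttgctaaatacacat
Sema4b: CATGggttttatatttttttttaata
Slit1: CATGccctctctcaaagtgccttgca
Nrp1: CATGtgacctgtagcccagtgcccag
Ephb1: CATGgaggaaagtctctgtcctatct
Ephb4: CATGtccctgcagaccaaagagaaag
Ntn1: CATGatagaactaaatccagatatca
Plxna2: CATGtacctattgtaaatatgaaact
All of these lie in 3′ untranslated regions: Sema3a at chr5:13602528-13602553 (plus strand), Slit1 at chr19:41600291-41600316 (minus), Nrp1 at chr8:128503245-128503270 (plus), Ephb1 at chr9:101922297-101922322 (minus), Ephb4 at chr5:137373947-137373972 (plus), Sema4b at chr7:80226327-80226352 (plus), Ntn1 at chr11:68209393-68209418 (minus) and Plxna2 at chr1:194816764-194816789 (plus). A predicted tag was found for all 68 members, in the 3′ untranslated region for 63 and in the coding sequence for 5, and no tag was shared with another gene. For 43 members all coding transcripts had the same tag. Slit1 was not among them, since 2 of its 3 coding transcripts end in the tag shown, and for Ephb1 it was 1 of 3 and for Sema3a 1 of 2.

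Library totals ran from 5041586 to 16655583 counts, and the members took 0.123% to 0.191% of them. A limit of 3 counts corresponds to 0.18 to 0.595 counts per 1000000 counts (CPM) in a library, and to 0.0459 CPM over all 8, which is the level that a member at 0 throughout could still have by counting error. The tissue label was checked against 11 neural progenitor genes, of which 10 or 11 had a count in each library, with a summed level of 4448 to 5720 CPM that came mostly from Sox11 and Lin28a. Diabetic open library 13 stood apart: Sox2, a neural progenitor transcription factor, was at 30.9 CPM there and at 287 to 550 CPM in the other 7, and Sox1, Pax6, Hes5, Nes and Pax3 were at 15.3, 4.92, 13.9, 37.8 and 7.75 CPM, each the lowest of the 8 libraries. The rest of that list did not move together in library 13. Sox11 was at its highest level there, 2746 CPM, and Lin28a at its lowest, 1566 CPM. Sox3, Ncam1 and Cdh2 were at 1.26, 53.0 and 74.4 CPM, which were not their lowest levels. In the same library, 12 mesoderm and mesenchyme markers summed to 1863 CPM, against 161 to 951 CPM in the other 7. Values without this library stand beside many of the differences of single genes. Throughout, a lower level in such tissue pieces can mean fewer cells of a type or less RNA per cell, which cannot be told apart.

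The guidance genes were a set of moderately expressed genes led by receptors for semaphorins and by Ntn1. Levels are CPM on library totals, and since 1 tag stands for 1 transcript they need no scaling by length, although a tag that was missed in counting would lower a gene. Over the 8 libraries 10 members averaged at least 50 CPM, 17 averaged 10 to 50 CPM and 33 were above 0 but under 10 CPM. Among the members that passed the filter the median was 13.6 CPM, against 15.5 CPM for all genes that passed. The members together summed to between 1234 and 1910 CPM per library, with a median of 1423.

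**Figure D1:**
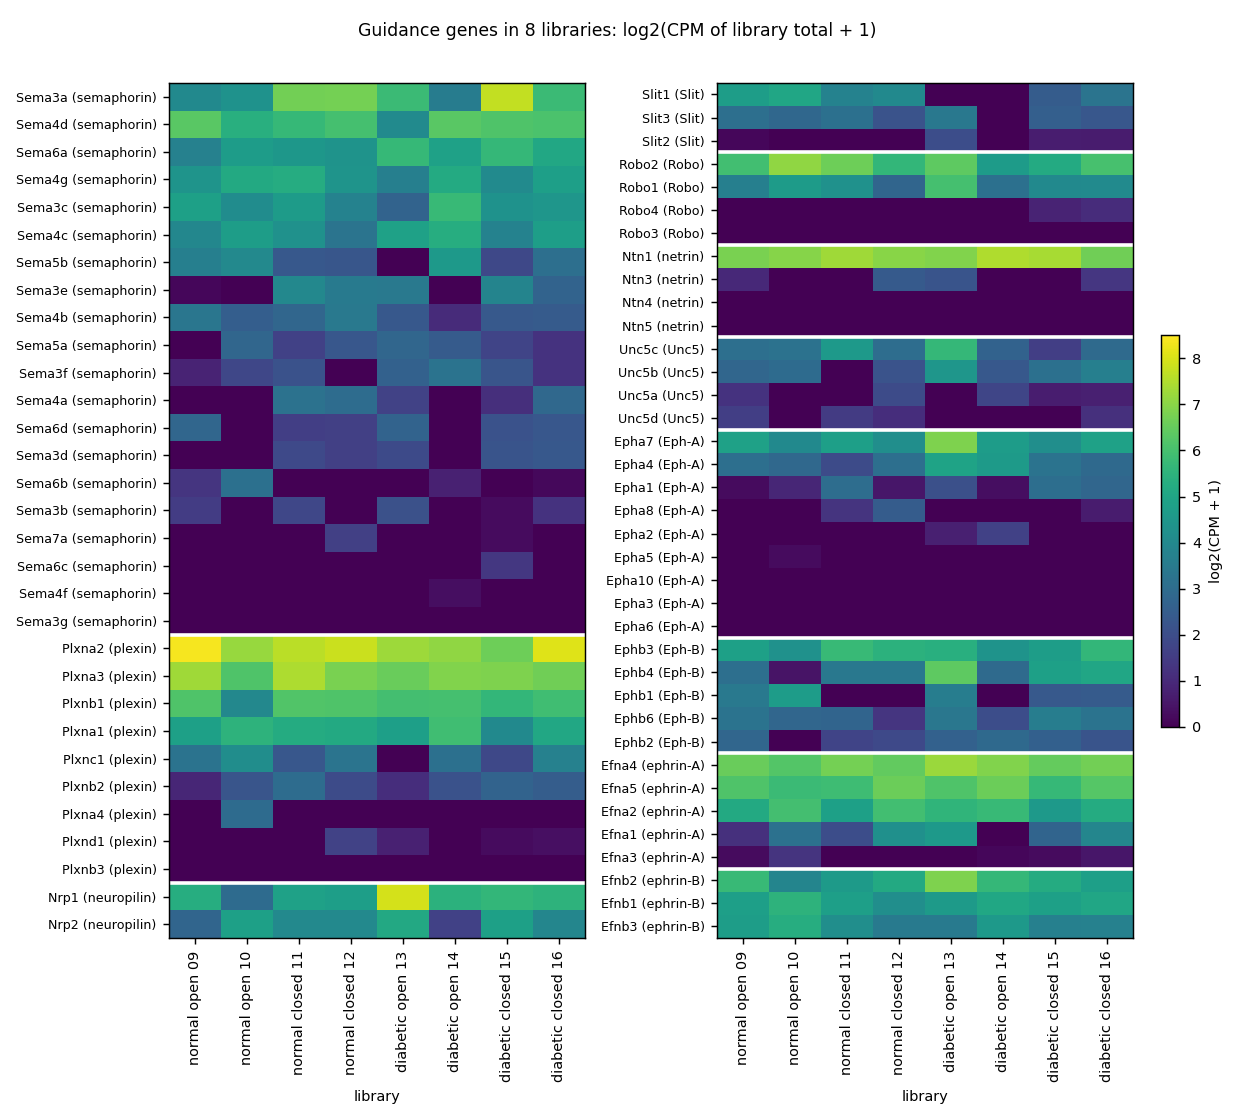
Level of each guidance gene (rows, grouped by class) in each of the 8 libraries (columns), coloured by log2(CPM + 1). Plxna2, Plxna3, Ntn1, Efna4 and Efna5 are above 50 CPM in every column, while library 13 differs from its partner 14 in many rows.

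Semaphorins formed the largest class, with 19 of 20 members counted and 16 tested, and summed to 197 to 416 CPM. Sema3a, a secreted repellent that acts through neuropilin 1 and A-type plexins, was the most abundant at a mean of 71.7 CPM, and Sema4d, a transmembrane ligand of Plxnb1, followed. Sema4d stood at 78.7 and 39.7 CPM in normal open, 51.1 and 63.1 in normal closed, 15.6 and 78.9 in diabetic open, and 70.4 and 67.1 CPM in diabetic closed tissue. Its lowest value was that of library 13, and the other 7 libraries overlapped across groups. Sema3g, a class 3 semaphorin, was at 0 throughout.

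Plexins, the semaphorin receptors, reached 286 to 597 CPM, and Plxna2 alone made up 46.8% of the class. Plxna2 stood at 335 and 145 CPM in normal open, 196 and 223 in normal closed, 153 and 136 in diabetic open, and 97.8 and 268 CPM in diabetic closed tissue. The highest value came from library 09, and both arms of each comparison overlapped. Plxna3, a receptor for secreted semaphorins together with neuropilins, stood at 155 and 69.9, 173 and 108, 94 and 118, and 116 and 98.8 CPM in the same order of groups (normal open, normal closed, diabetic open, diabetic closed), which is the order used for every gene from here on. Plxnb2, whose loss disturbs cranial closure, was low at a mean of 3.66 CPM, and Plxnb3 was at 0 throughout.

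Neuropilins were counted at lower levels than plexins in all 8 libraries. Nrp1 made up 77.4% of their sum, and its values are given with the dam comparison. Nrp2, which prefers other class 3 semaphorins, stood at 5.83 and 27.4, 15.1 and 15.1, 33.7 and 2.15, and 27.2 and 14.1 CPM. Its partner libraries differed more in open than in closed tissue.

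Ntn1, the secreted netrin of the floor plate, was the steadiest of the abundant members. It stood at 109.8 and 122.6, 157 and 128, 119 and 180, and 168 and 100.2 CPM, a mean of 135 ± 29.0 CPM (SD, n = 8) with a coefficient of variation of 21.4%. Closed and open libraries overlapped, as did diabetic and normal ones, with a log2 fold change of 0.11 (SE 0.25) for closed against open and 0.13 (SE 0.25) for diabetic against normal. Ntn1 made up 99.0% of the netrin counts. Ntn3 had counts in 4 libraries, at 0.987 and 0, 0 and 4.29, 3.66 and 0, and 0 and 1.535 CPM, and Ntn4 and Ntn5 were at 0 throughout.

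The netrin receptors of the Unc5 family were low, at a summed level of 10.3 to 70.8 CPM. Unc5c, a repulsive netrin receptor, stood at 7.50 and 8.29, 22.4 and 7.26, 49.5 and 5.37, and 1.98 and 6.70 CPM. Unc5b, a netrin receptor known from blood vessels, stood at 5.92 and 6.88, 0 and 3.55, 21.3 and 4.06, and 7.74 and 11.6 CPM. Both were highest in library 13.

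Robo2 was the most abundant Slit receptor, at 59.8 and 134, 98.3 and 48.0, 83.2 and 24.6, and 35.7 and 64.3 CPM. Partner libraries of all 4 groups differed and the groups overlapped. Robo1, also a Slit receptor, stood at 11.8 and 24.5, 18.7 and 5.78, 62.1 and 7.88, and 15.5 and 15.8 CPM, with its highest value in library 13. Robo3 was at 0 throughout, and Robo4, a Robo of blood vessels, had counts only in the libraries of diabetic closed tissue, at 0.793 and 1.12 CPM. Slit3 was the second most abundant ligand after Slit1, at 7.60 and 6.17, 7.83 and 3.55, 9.67 and 0, and 4.96 and 3.91 CPM, and Slit2 was at 0 or close to it outside library 13.

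A-type ephrins, which are tethered to the membrane by a lipid anchor, summed to 169 to 289 CPM. Efna4 stood at 92.6 and 73.6, 105 and 87.5, 150 and 116, and 89.3 and 103 CPM. Efna5 stood at 71.3 and 54.5, 56.8 and 95.8, 70.2 and 94.7, and 51.0 and 75.8 CPM. Efna4 was highest in the 2 diabetic open libraries, which lay above the other 6, while the groups of Efna5 overlapped. A-type Eph receptors were scarcer at 22.8 to 148 CPM, since Epha3, Epha6 and Epha10 were at 0 throughout and 3 others were too low to test. Epha7, the leading A-type receptor, stood at 27.8 and 15.3, 26.9 and 17.3, 115 and 24.9, and 17.3 and 28.0 CPM.

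The B class was more even between ligands and receptors. Efnb2, a transmembrane ephrin known from arteries and somite borders, stood at 52.3 and 13.6, 24.0 and 34.9, 114 and 49.5, and 36.7 and 26.6 CPM. Efnb1, a transmembrane ephrin of the X chromosome, stood at 26.9 and 43.9, 26.9 and 17.5, 23.8 and 32.5, and 27.4 and 31.4 CPM. Of the B-type receptors, Ephb3 was the most abundant, and all 5 passed the filter. Efnb1 was the more even ligand, whereas Efnb2 was highest in library 13.

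**Figure D2:**
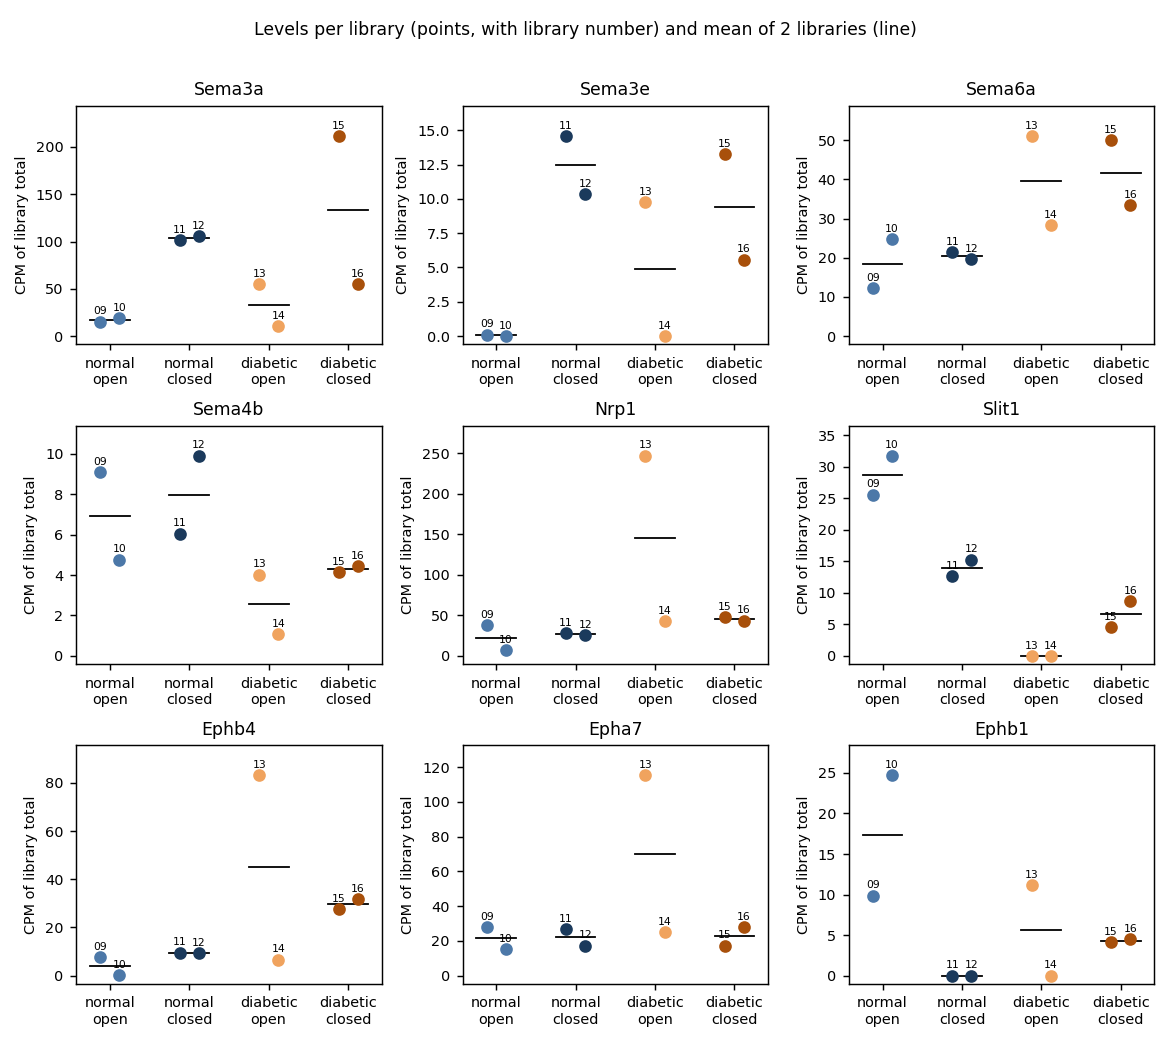
CPM of selected guidance genes in the 8 libraries, 1 point per library, with groups on the horizontal axis and bars at the group means. Sema3a points of closed tissue all lie above those of open tissue, and Slit1 is at 0 in both diabetic open libraries.

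Of all members, Sema3a separated closed from open tissue most clearly. It stood at 15.3 and 19.2 CPM in normal open and 101 and 106 CPM in normal closed tissue, and at 54.7 and 10.9 CPM in diabetic open and 212 and 55.1 CPM in diabetic closed tissue. All 4 closed libraries lay above all 4 open ones, but the nearest values, 55.1 CPM in library 16 and 54.7 CPM in library 13, were almost equal. Closed tissue averaged 118 ± 66.3 CPM and open tissue 25.02 ± 20.1 CPM (SD, n = 4 each). The log2 fold change of 2.35 (SE 0.53) did not pass edgeR's quasi-likelihood test over all genes (Benjamini-Hochberg adjusted p = 1.00). DESeq2 called it (adjusted p = 0.0139) and limma-voom did not (adjusted p = 0.920). With edgeR it was called when library 16 was left out (log2 fold change 2.67, adjusted p = 0.0123), and without library 13 the log2 fold change was 3.01 (adjusted p = 0.122).

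The difference was seen with both kinds of dam. With normal dams Sema3a averaged 103 ± 3.24 CPM on the closed side and 17.3 ± 2.78 CPM on the open side, and with diabetic dams 134 ± 111 against 32.8 ± 31.0 CPM (SD, n = 2 each). The log2 fold changes were 2.63 (SE 0.78) and 2.07 (SE 0.76). In diabetic dams the 2 partner libraries of each region were far apart. The interaction of region and dam was -0.57 (SE 1.04) on the log2 scale, a difference well within its error. The summed level of 9 neural crest markers, of which 4 to 9 were counted in a library, moved in the same direction in normal dams. It went from 72.3 and 102 CPM in open to 206 and 122 CPM in closed tissue. Sox9 gave 38.0 and 67.2 CPM, and 115 and 67.5 CPM, of these sums. In diabetic dams the sum stood at 115 and 51.3 CPM against 133 and 124 CPM. Sox9 gave 17.95 and 25.1 CPM, and 75.8 and 75.1 CPM, of these. Snai1 and Snai2 gave 35.6 and 56.6 CPM of the 115 CPM in library 13. Over all 8 libraries, 7 of the 9 markers had positive log2 fold changes for closed against open (55.5% of all genes). Of the 9, 3 were higher at an unadjusted p below 0.05 and 0 lower (2.31% and 1.01% of all genes), and edgeR called 0. The 11 surface ectoderm markers summed to 80.6 and 112 CPM in open and 311 and 149 CPM in closed tissue of normal dams. In diabetic dams they summed to 335 and 72.35 CPM against 300 and 118 CPM. Krt18 and Krt8 gave 197 and 60.0 CPM of the 335 CPM in library 13. Cdh1 stood at 15.3 and 20.1, 115 and 46.35, 43.35 and 20.1, and 119 and 44.1 CPM. Of the 9 ectoderm markers tested, 7 had positive log2 fold changes for closed against open. Cdh1 and Tcfap2a were higher at an unadjusted p below 0.05 and 0 were lower, and edgeR called 0. The part of either cell type in the Sema3a result was not tested.

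No other member separated closed from open tissue. At adjusted p below 0.05, edgeR called 0 of 49 members, and 0% of all genes tested. At an unadjusted p below 0.05 it was 1 of 49 (Sema3a), against 3.32% of all genes. DESeq2 called 1 of 49 against 0.0764% of all genes, and limma-voom 0. Sema3a was also the 1 member of 49 whose closed and open libraries did not overlap, which held for 2.75% of all genes. The median log2 fold change of the tested members was -0.06, with 23 above and 26 below 0. For all genes tested it was 0.07, with 55.5% above 0.

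A few further semaphorins differed between regions at low levels without passing the test. Sema3e, a ligand that binds Plxnd1 directly, stood at 0.0987 and 0, 14.6 and 10.4, 9.79 and 0, and 13.3 and 5.58 CPM. Its level was above 1 CPM in all 4 closed libraries and in 1 open library, number 13, with a log2 fold change of 3.72 (SE 2.15) that became 7.78 (SE 1.63, edgeR adjusted p = 0.654) without library 13. Sema4a, a transmembrane semaphorin of class 4, stood at 0 and 0, 8.19 and 7.11, 2.16 and 0, and 1.19 and 6.28 CPM (log2 fold change 4.48, SE 2.45). In normal dams Sema4a was at least 40.01-fold higher in closed tissue, a bound set by 3 counts over the group that covers counting error only. Sema6b went the other way at 1.48 and 7.76, 0 and 0, 0 and 0.716, and 0 and 0.140 CPM (log2 fold change -4.64, SE 2.75), and no group of it reached 10 CPM.

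Among ligands and receptors of the Eph system, the 3 B-type ephrins all had negative values and none passed. Efnb3, a transmembrane ephrin of the neural midline, stood at 25.8 and 38.3, 17.3 and 10.2, 9.97 and 22.8, and 12.1 and 12.3 CPM (log2 fold change -0.78, SE 0.49). It was lower in both closed libraries of normal dams than in both open ones, but the diabetic libraries overlapped. Efnb2 had a log2 fold change of -0.73 (SE 0.49) and Efnb1 of -0.26 (SE 0.37). Without library 13 that of Efnb2 was -0.34 (SE 0.48) and that of Efnb3 -1.06 (SE 0.52).

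Ephb3, a receptor of B-type ephrins, leaned to closed tissue, at 27.4 and 18.7, 52.4 and 42.9, 40.6 and 19.6, and 25.8 and 48.7 CPM. It was higher in closed tissue of normal dams, while its diabetic libraries overlapped (log2 fold change 0.71, SE 0.39, and 1.02, SE 0.42, without library 13). Epha4, a receptor of both ephrin classes that marks segments of the hindbrain, leaned to open tissue at 7.50 and 6.35, 2.85 and 7.70, 29.2 and 23.5, and 8.53 and 6.42 CPM. Its 2 highest values were the 2 diabetic open libraries (log2 fold change -1.07, SE 0.68, for closed against open, and 1.20, SE 0.68, for diabetic against normal).

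**Figure D3:**
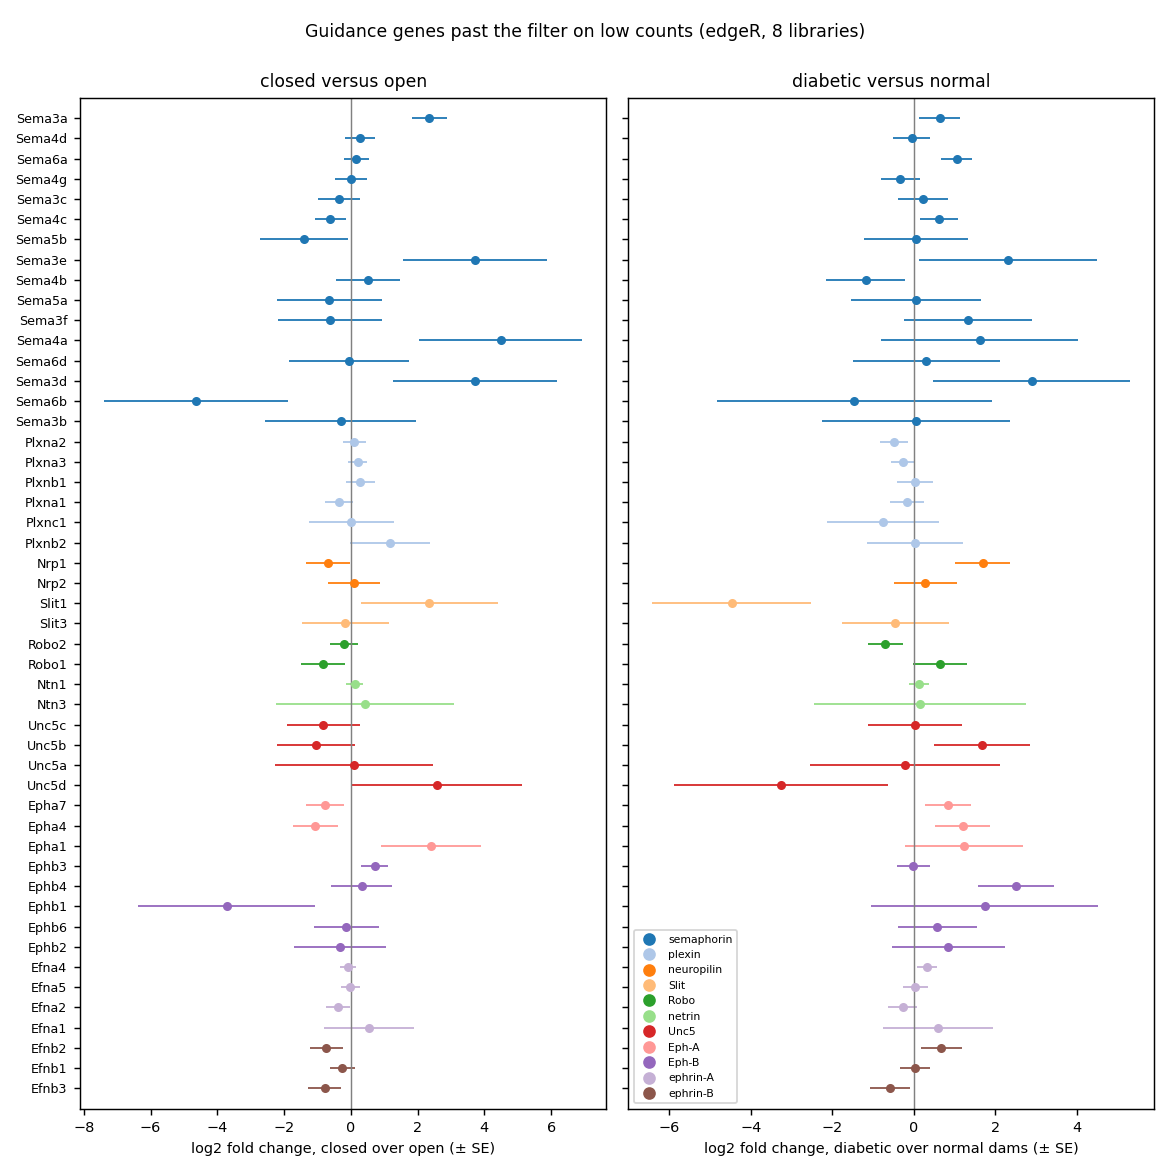
Log2 fold changes of the tested guidance genes, with error bars of 1 SE, for closed against open tissue and for diabetic against normal dams. Sema3a has the smallest p of the first comparison at 2.35, and Slit1 lies at -4.47 and Ephb4 at 2.51 in the second.

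The members with the smallest p between dams were a Slit ligand, a semaphorin and 2 receptors, although none passed edgeR over all genes. At adjusted p below 0.05, edgeR called 0 of 49 members and 0% of all genes, and at an unadjusted p below 0.05 it was 4 of 49 (Sema6a, Ephb4 and Nrp1 higher, Slit1 lower) against 4.55% of all genes. DESeq2 called 1 of 49 (Slit1) against 0.314% of all genes, and limma-voom 0. Diabetic and normal libraries did not overlap for 4 of 49 members (Sema6a and Nrp1 higher, Sema4b and Slit1 lower), against 3.63% of all genes. Both counts rest on few genes, and values without library 13 follow for Slit1, Sema6a, Nrp1 and Ephb4.

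The tested members leaned to diabetic dams, with 33 above and 16 below 0 and a median log2 fold change of 0.13. Of all genes 52.7% were above 0, with a median of 0.04. Without library 13 this lean turned: 24 of 54 members were above and 30 below 0, with a median of -0.03, beside -0.0035 for all genes. Of the 27 members that averaged at least 10 CPM, 10 had their highest level in library 13, which held for 16% of all genes at that level.

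Slit1, a secreted repellent that binds Robo receptors, had its lowest levels with diabetic dams. It stood at 25.6 and 31.8 CPM in normal open, 12.6 and 15.2 in normal closed, 0 and 0 in diabetic open, and 4.56 and 8.65 CPM in diabetic closed tissue. Every diabetic library lay below every normal one. The 2 libraries at 0 were 13, the most deeply sequenced of all, and 14. Library 13 also had the lowest levels of Sox2, Pax6 and Pax3, at 30.9, 4.92 and 7.75 CPM. In library 14 these stood at 418, 40.8 and 34.7 CPM. Diabetic dams gave 3.30 ± 4.16 CPM and normal dams 21.3 ± 8.93 CPM (SD, n = 4 each). The log2 fold change was -4.47 (SE 1.95) and did not pass with edgeR (adjusted p = 0.999) but did with DESeq2 (adjusted p = 0.0183). Without library 13 it was -2.57 (SE 1.37). The 7 notochord and floor plate markers, 6 of them tested, summed to 39.1 and 106, 85.5 and 87.7, 12.25 and 48.8, and 64.7 and 67.7 CPM. Of the 6 tested, 2 had positive log2 fold changes for diabetic against normal dams, and edgeR called 0. The part of cell content in the Slit1 result was not tested.

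Open tissue of diabetic dams had no Slit1 count. There Slit1 was at least 232-fold lower with diabetic dams, a bound from 3 counts over the group (0.120 CPM) that covers counting error only (edgeR adjusted p = 0.251, DESeq2 adjusted p = 2.11e-06). In closed tissue diabetic dams gave 6.61 ± 2.89 CPM and normal dams 13.95 ± 1.84 CPM (SD, n = 2 each), and the log2 fold change of -1.10 had an SE of 0.92. Within diabetic dams closed tissue was at least 58.1-fold higher than open tissue (edgeR adjusted p = 0.331), whereas within normal dams it was lower (log2 fold change -0.99, SE 0.91). The test of this difference between dams gave an adjusted p of 1.00 with edgeR and an adjusted p of 0.00389 with DESeq2.

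The edgeR call for Slit1 in open tissue depended on which libraries were in the fit. The adjusted p was 0.0396 without library 09, 0.0330 without 14, 0.00247 without 15 and 0.00278 without 16, against 0.251 with all 8 and 0.0806 without 13. Since open diabetic tissue was at 0 in both libraries, leaving out 1 of them left the other as its single value, assumed to vary like the other groups.

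Sema6a, a transmembrane semaphorin that binds A-type plexins, was higher with diabetic dams. It stood at 12.3 and 24.7, 21.4 and 19.7, 51.1 and 28.3, and 49.98 and 33.5 CPM. Every diabetic library lay above every normal one, although the nearest values (28.3 and 24.7 CPM) were close. The means were 40.7 ± 11.6 and 19.5 ± 5.22 CPM (SD, n = 4 each). The log2 fold change was 1.06 (SE 0.38, edgeR adjusted p = 0.999), and without library 13 it was 0.86 (SE 0.45).

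Sema4b, a transmembrane semaphorin of class 4, was low in all libraries and lower with diabetic dams. It stood at 9.08 and 4.76, 6.05 and 9.92, 4.02 and 1.07, and 4.17 and 4.46 CPM. The arms met at 4.76 and 4.46 CPM without overlap, and the means were 3.43 ± 1.58 and 7.46 ± 2.45 CPM (mean ± SD, n = 4 each). The log2 fold change was -1.18 (SE 0.98, edgeR adjusted p = 0.999).

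Nrp1, the neuropilin that serves Sema3a in neurons and the vascular growth factor Vegfa in endothelium, was higher with diabetic dams mainly through 1 library. It stood at 38.2 and 6.88, 28.1 and 25.9, 247 and 43.2, and 48.2 and 43.7 CPM. The diabetic libraries other than 13 lay within 43.2 and 48.2 CPM, just above the highest normal value. Diabetic dams gave 95.6 ± 101 CPM and normal dams 24.8 ± 13.1 CPM (mean ± SD, n = 4 each; log2 fold change 1.70, SE 0.68, edgeR adjusted p = 0.999). Without library 13 it was 0.82 (SE 0.52).

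Ephb4, the ephrin-B2 receptor of veins, showed the same library. It stood at 7.60 and 0.353, 9.62 and 9.48, 83.2 and 6.68, and 27.8 and 31.7 CPM. Both diabetic closed libraries and library 13 lay above all normal ones, and library 14 lay among them. Diabetic dams gave 37.3 ± 32.5 CPM and normal dams 6.76 ± 4.37 CPM (mean ± SD, n = 4 each; log2 fold change 2.51, SE 0.94, edgeR adjusted p = 0.999), and without library 13 it was 1.27 (SE 0.88).

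Markers of blood vessels were also high in library 13. The 12 endothelial genes, all with a count in at least 1 library and 8 past the filter, summed to 26.4 to 60.3 CPM in normal and 67.8 to 335 CPM in diabetic libraries, with the highest value in library 13. Egfl7 gave 25.9 to 49.9 CPM of the sums in normal and 47.0 to 143 CPM in diabetic libraries. Tek, with the smallest p of the list between dams, stood at 106 and 30.1 CPM in diabetic open tissue. It stood at 3.37 and 14.1 CPM in diabetic closed tissue and at most 2.57 CPM in normal tissue. Of the 8 tested, 6 had positive log2 fold changes, all at an unadjusted p below 0.05, although edgeR called 0. Pecam1 and Emcn were negative, at -0.42 (SE 2.50) and -0.80 (SE 1.68). Kdr and Flt1 were at or near 0 in all 8 libraries, with at most 0.178 and 0.698 CPM. The 10 blood markers, 8 with a count and 4 past the filter, summed to 63.8 and 1.41, 1.78 and 0.592, 934 and 1014, and 5.355 and 213 CPM. Hba-x alone gave 891 and 994 CPM of the sums in diabetic open tissue. There Nrp1 stood at 247 and 43.2 CPM and Ephb4 at 83.2 and 6.68 CPM. The 12 mesoderm and mesenchyme markers, all past the filter, summed to 1863 and 303 CPM in diabetic open and 951 and 753 CPM in diabetic closed tissue, against 161 to 483 CPM in normal libraries. All 12 had positive log2 fold changes for diabetic against normal dams, with a median of 1.95, and 6 had an unadjusted p below 0.05, although edgeR called 0. The part of these cells in the Nrp1, Ephb4 and other dam differences was not tested.

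**Figure D4:**
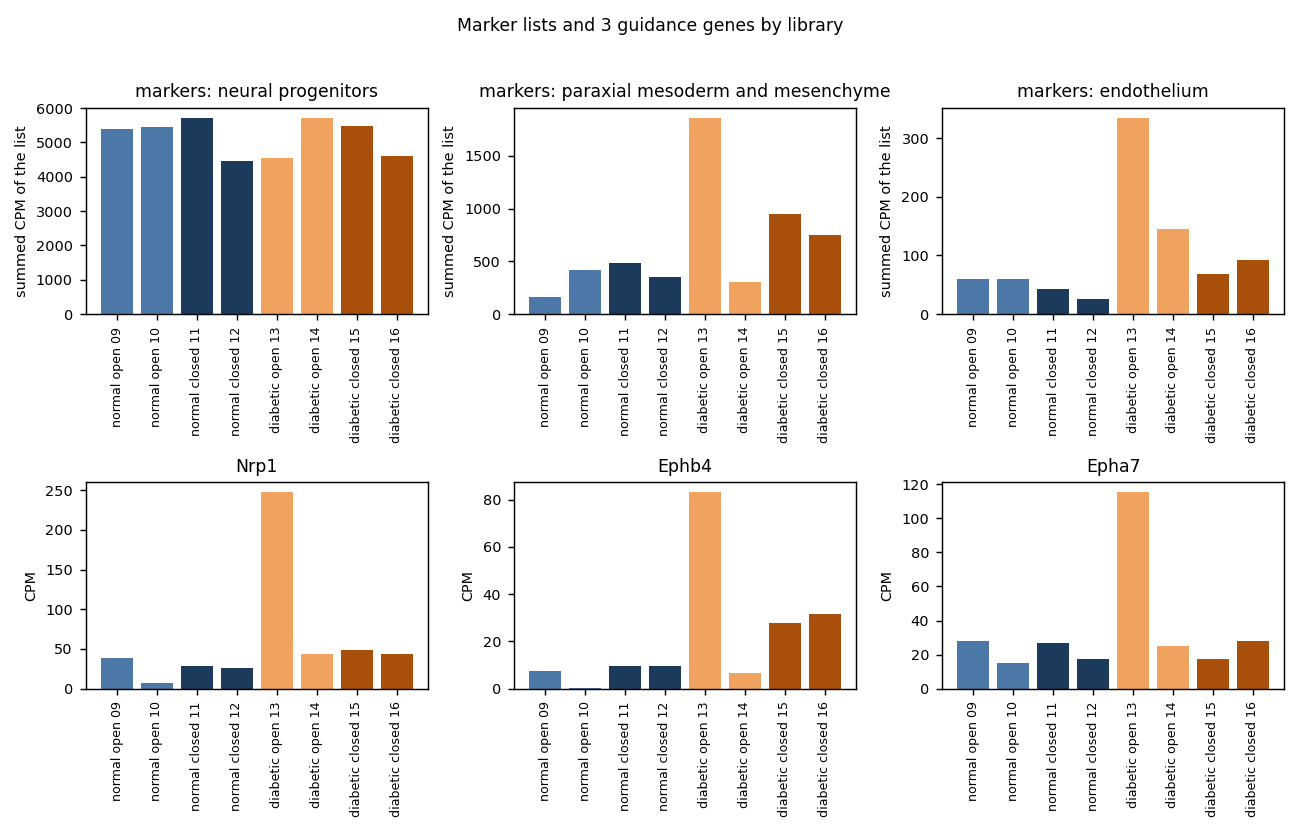
Summed CPM of marker lists for neural progenitors, paraxial mesoderm and mesenchyme, and endothelium in each library, with the CPM of Nrp1, Ephb4 and Epha7. Library 13 has the highest mesoderm (1863 CPM) and endothelium (335 CPM) sums.

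Further members with smaller differences between dams were Robo2 and Plxna2, both lower with diabetic dams at log2 fold changes of -0.70 (SE 0.43) and -0.49 (SE 0.35), or -1.08 (SE 0.46) and -0.45 (SE 0.38) without library 13. Unc5d, a netrin receptor at the limit of detection, stood at 1.98 and 0, 1.78 and 1.19, 0 and 0, and 0 and 1.26 CPM (log2 fold change -3.26, SE 2.62). Their libraries overlapped between dams, and none passed the test.

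Within 1 region or 1 kind of dam the counts of members were small and were read against those of all genes. With edgeR, 0 of 49 members and 0% of all genes passed at adjusted p below 0.05 in each of the 4 simple differences and the interaction. At an unadjusted p below 0.05, closed against open tissue gave 4 of 49 members in normal dams (Sema3a, Sema3e and Sema4a higher, Ephb1 lower; 3.4% of all genes) and 2 in diabetic dams (Sema3a and Slit1, both higher; 2.78%). Diabetic against normal dams gave 5 of 49 in open tissue (Nrp1, Ephb4, Sema3e and Epha7 higher, Slit1 lower; 7.22%) and 1 in closed tissue (Ephb1, higher; 1.17%).

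In these contrasts DESeq2 called Slit1 for closed against open tissue of diabetic dams (adjusted p = 0.000465, 0.391% of all genes called) and for diabetic against normal dams in open tissue (1.66% of all genes called). It called 0 members for closed against open tissue in normal dams (0.229%) and for dams in closed tissue (0.017%). Limma-voom called 0 members in each of the 5 contrasts, and 0.00849% of all genes for region in diabetic dams, for dams in open tissue and for the interaction. Without the filter on low counts, edgeR called 1 member for closed against open (0.191% of all genes), 2 for diabetic against normal (0.587%), 1 for region in normal dams (0.145%), 2 for region in diabetic dams (0.27%), 3 for dams in open tissue (0.91%), 0 for dams in closed tissue (0.0725%) and 1 for the interaction (0.152%). These were Sema3a, Slit1, Nrp1 and Ephb4. These comparisons share libraries, so their values are given side by side and were not correlated.

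The interaction of region and dam had 2 of 49 members at an unadjusted p below 0.05 with edgeR, Slit1 and Ephb1, against 3.74% of all genes, and DESeq2 called Slit1 alone (0.144% of all genes called). Ephb1, a receptor of B-type ephrins, stood at 9.87 and 24.7, 0 and 0, 11.2 and 0, and 4.17 and 4.46 CPM. It was at least 62.6-fold lower in closed than in open tissue of normal dams (edgeR adjusted p = 1.00), while diabetic closed libraries both had counts and diabetic open libraries were 1 high and 1 at 0. The interaction had an adjusted p of 1.00 with edgeR.

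Unc5c and Sema3e had the smallest p in the other direction of the interaction. Unc5c was higher in closed tissue of normal dams through library 11 and higher in open tissue of diabetic dams through library 13 (interaction -3.57, SE 1.67, and -1.20, SE 1.83, without library 13). For Sema3e the interaction was -6.46 (SE 3.05) and turned to 1.69 (SE 2.20) without library 13. Both normal closed libraries lay above both normal open ones for Sema3e, while its diabetic open value and the high values of Unc5c rest on 1 library each.

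In open tissue several members had counts in 1 library of a group and none in the other. Library 13 held 41 members at 50 counts or more, and 8 of them were at 0 in its partner 14 (Sema3b, Sema3e, Sema6d, Slit2, Slit3, Ntn3, Ephb1 and Efna1), or 19.5% against 11.9% of all such genes. In the other direction 2 of 28 members, Sema5b and Plxnc1, were at 0 (7.14% against 3.23%). In normal open tissue 2 of 36 members of library 09 were at 0 in library 10 (Sema6d and Ephb2; 5.56% against 6.44%) and 0 of 26 the other way (3.12% of genes). In closed tissue no member with at least 50 counts was at 0 in its partner, and 0.0146% to 1.22% of all genes were.

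**Figure D5:**
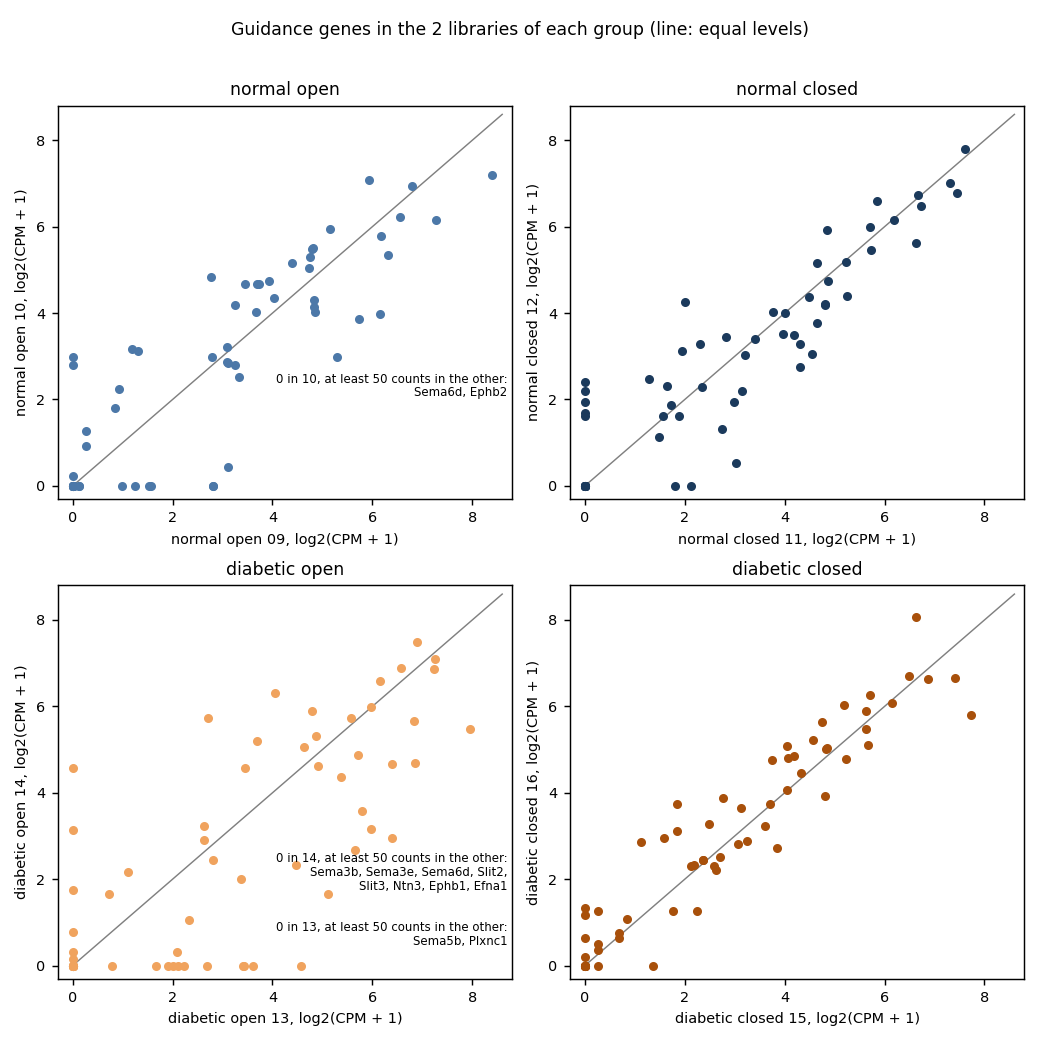
Levels of the guidance genes in the 2 libraries of each group plotted against each other as log2(CPM + 1). Members with at least 50 counts in 1 library and 0 in its partner are listed as text. Members off the diagonal include Sema3a in diabetic closed tissue (212 and 55.1 CPM), and in the diabetic open group 8 members counted 50 times or more in library 13 are at 0 in library 14.

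The members varied more between libraries than other genes of at least 10 CPM. The 27 members with a mean of at least 10 CPM had a median coefficient of variation over the 8 libraries of 46.6%, and the 6943 genes at that level had 34.6%. A mean taken over such libraries, as for Slit3 or Ephb1 in diabetic open tissue, rests on 1 high value and 1 at 0.

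Genes that work with the guidance receptors did not pass the test in either comparison. Of 21 co-receptors and secreted partners listed in the files, 14 were tested and edgeR called 0. At an unadjusted p below 0.05, 3 were higher in closed tissue and 0 lower (2.31% and 1.01% of all genes), and 1 was higher and 1 lower with diabetic dams (2.97% and 1.58%). The median log2 fold change of this list was 0.71 for closed against open and 0.10 for diabetic against normal. The 3 higher in closed tissue were Rgma and Hfe2, both ligands of neogenin, and Chl1, an adhesion molecule that partners neuropilins, and Flrt2 (higher) and Met (lower) were those of the dam comparison. They are named because the counts are small, and were chosen after their values were seen.

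Neo1, which encodes the receptor neogenin for netrins and for repulsive guidance molecules, was the most abundant partner at 381 and 221, 274 and 248, 436 and 210, and 263 and 251 CPM. It was above every member in the mean and overlapped between all groups (log2 fold change -0.23, SE 0.26, closed against open, and 0.02, SE 0.26, diabetic against normal). Dcc, the classical attractive netrin receptor, averaged 1.65 CPM and was at 0 in 5 libraries, and of the netrin receptors Neo1 was the one with the most counts. Flrt3, a membrane protein that binds Unc5 receptors, followed Neo1 at a mean of 69.0 CPM.

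Of 45 intracellular effectors, 36 were tested and edgeR called 0. At an unadjusted p below 0.05, 0 moved with region, and 2 were higher with diabetic dams (Enah, an actin regulator below Robo and Dcc, and Tiam1, a Rac activator) against 2.97% of all genes higher. Rac1, the GTPase that many of these receptors use, had the highest mean of the list at 638 CPM with 592 to 716 CPM over the 8 libraries, and Dpysl2, which passes the Sema3a signal to microtubules, averaged 465 CPM with 347 to 565 CPM. The medians of the list were 0.12 for region and -0.06 for dam.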

How the data were processed

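SAGE tag counts per gene symbol were used as the authors deposited them, 1 table per library with 26608 genes. Per the submitters' processing notes the genome build was mm9. Aligner, counter and annotation, and whether ambiguous or antisense tags were kept, are not stated in the sources used here, so a gene with a near-identical copy or an overlapping neighbour is uncertain. The labels gave the groups, and title numbers name libraries. Totals ran from 5041586 to 16655583 counts. Bounds use 3 counts over a group and cover counting error only, since the reads carry no molecular identifiers.

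All genes were fitted in R 4.3.3 with edgeR 4.0.16 (filterByExpr with minimum count 10 and minimum total count 15, TMM scaling, quasi-likelihood F test, Benjamini-Hochberg adjustment over 11779 genes, threshold 0.05). Region and dam were tested in an additive model, and the 4 simple differences and the interaction as contrasts of the 4 groups. Standard errors were derived from the F statistics. DESeq2 1.42.0, limma-voom (limma 3.58.1), other scalings, no filter on low counts and leaving out each library were alternatives. Non-overlap means that all 4 libraries of an arm lay above all 4 of the other in CPM on library totals. The fits were also run on simulated counts in which some genes changed by region. Only closed against open was scored, no library was made to deviate, and the outcome is not given here.

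Members were given by symbol. Those printed with all values were the 2 most abundant of each class, for region and for dam the 4 of each sign with the smallest p, those without overlap, and the leading 2 of each sign in the interaction. Of the pathway lists the 2 most abundant genes were named unless a gene passed. The members and lists were chosen with earlier results of these data known. Predicted tags come from GENCODE M21 transcripts of GRCm38 by symbol, and the sequence of Sema6a is not reported here.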

Additional observations from a re-analysis of the deposited data

Results flagged for a closer look

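In 120 sets of 4 libraries (both regions and both dams for each of 30 members named with all values), 1 library lay far from the other 3 in 18, by a gap above Dixon's critical value. For independent, normally distributed values chance does this in about 1 in 20 sets, but CPM are skewed, each value enters 2 sets, some members were named for large differences, and in 4 of the 18 the other 3 libraries were at 0, so that rate does not apply here. Library 13 of diabetic open tissue gave 11 of the 18. In CPM these were Nrp1 at 247 among open (others 6.88 to 43.2) and among diabetic libraries (43.2 to 48.2), Unc5c at 49.5 among open (5.37 to 8.29) and diabetic libraries (1.98 to 6.70), and Epha7 at 115 among open (15.3 to 27.8) and diabetic libraries (17.3 to 28.0). The other 5 were Robo1 at 62.1 among diabetic libraries (7.88 to 15.8), and Ephb4 at 83.2 (0.353 to 7.60), Unc5b at 21.3 (4.06 to 6.88), Sema3e at 9.79 (0 to 0.0987) and Sema4a at 2.16 (others at 0) among open libraries.

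The remaining values came from other libraries. Plxna2 was at 335 CPM in library 09 among open libraries (136 to 153), Nrp2 at 27.2 in library 15 among closed ones (14.1 to 15.1), and Unc5c at 22.4 in library 11 among normal ones (7.26 to 8.29). Sema4b was low at 1.07 CPM in library 14 among diabetic libraries (4.02 to 4.46). Sema6b at 0.140 in library 16 among closed libraries, and Unc5d at 1.98 in library 09 among open and 1.26 in library 16 among diabetic libraries, each stood against 3 libraries at 0.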

How the results depend on the processing

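No paired analysis was possible because library numbers 09 to 16 each occur in 1 group only, so groups share no number. edgeR called 0 members in every comparison. Without the filter on low counts it called 1 for closed against open (Sema3a), 2 for diabetic against normal (Ephb4 and Nrp1), 1 for region in normal dams (Sema3a), 2 for region in diabetic dams (Sema3a and Slit1), 3 for dams in open tissue (Ephb4, Nrp1 and Slit1) and 1 for the interaction (Slit1). DESeq2 called 1 for closed against open (Sema3a), 1 for diabetic against normal, 1 for region in diabetic dams, 1 for dams in open tissue and 1 for the interaction (Slit1 in each of the latter 4). Leaving out each library in turn gave 0 to 1 called members for closed against open, for region in diabetic dams (both Sema3a, without library 16) and for dams in open tissue (Slit1), and 0 in the other 4 comparisons.

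Over these fits the median log2 fold change of members ran from -0.17 to 0.06 for closed against open, -0.03 to 0.25 for diabetic against normal, -0.041 to 0.46 for region in normal dams (highest without library 09), -0.52 (without 16) to 0.30 (without 13) for region in diabetic dams, 0 (without 13) to 0.61 (without 09) for dams in open tissue, -0.13 to 0.11 for dams in closed tissue, and -0.66 (without 16) to 0.20 (without 11) for the interaction. With limma-voom the median was 0.12 for closed against open, against -0.06 with edgeR, 0.19 for region in diabetic dams, against -0.18 with edgeR, and -0.18 for the interaction, against -0.45. Members at 0 in the partner library numbered 12 at a minimum of 50 counts and 20 at 20 counts. Of the single genes, Sema3e turned in the interaction without library 13, at 1.69 against -6.46 with all 8, and ran down to -8.65 without library 09. The cause of these changes was not tested. Low totals limit the members under 10 CPM, where a library of 5041586 counts cannot tell 0 from 0.595 CPM.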
